A study of Mus musculus with 4 samples.

Results

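The cells described here are non-myelinating glial cells of mouse hindlimb muscle, measured by scRNA-seq in 4 libraries. They were chosen by their own transcripts. A barcode with between 1000 and 5000 genes, and no more than 8% of UMIs from mitochondrial genes, was taken when it held a UMI in at least 3 of the 7 glial genes Sox10, Cdh19, Chl1, Col20a1, Gpr37l1, Gfra3 and Foxd3, at most 1 Pax7 UMI, no Cdh5 or Ptprc UMI, and UMIs in at most 1 of the myelin genes Prx, Mag and Ncmap. This gave 550 cells out of 20850 barcodes that passed the limits on genes and mitochondrial UMIs. The levels of the genes in the rule are therefore given as a description of the choice and nothing is tested with them. The study profiled satellite cells, the muscle stem cells, in healthy and dystrophic males of 2 genetic backgrounds. Cells were sorted for the surface proteins ITGA7 and VCAM after depletion of cells bearing Cd11b, Sca1, Cd45 or Cd31, so the glial cells are those that came through a sort for another cell type.

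The B10 library came from wildtype C57/Bl10ScsSn mice aged 15 weeks and the mdx library from C57BL/10ScSn-Dmdmdx mice aged 11 weeks. The DBA library came from wildtype DBA/2 mice aged 13 weeks and the D2-mdx library from D2.B10-Dmdmdx mice aged 14 weeks. The mdx allele is a germline mutation of Dmd that stops full-length dystrophin. Shorter products from promoters further downstream, among them one used by Schwann cells, do not need the mutated exon. No mouse was treated. Each library pooled 2 mice. With 1 library for each strain, a difference between libraries has no replicate check, and strain, age, sort and library preparation cannot be told apart. No p-value is given. Intervals are 95% and cover counting error only.

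Schwann cells are the glia of peripheral nerves. Myelinating Schwann cells wrap a single large axon, whereas non-myelinating ones hold bundles of small axons (Remak cells) or cap the motor nerve ending (terminal, or perisynaptic, Schwann cells). All depend on the transcription factor Sox10 and on neuregulin signals received through Erbb3. After nerve injury they turn on Jun, lower myelin genes and secrete trophic factors, a state known as the repair cell.

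The glial cells made up a far larger share of the dystrophic libraries. There were 10 in B10, 0.210% of 4762 kept barcodes (exact binomial interval 0.101 to 0.386), and 316 in mdx, 4.74% of 6669 (4.24 to 5.28). There were 9 in DBA, 0.267% of 3370 (0.122 to 0.506), and 215 in D2-mdx, 3.55% of 6049 (3.10 to 4.05). The limits on genes and mitochondrial UMIs kept 4762 of 9931 B10 barcodes but 6669 of 7173 in mdx, 3370 of 3539 in DBA and 6049 of 6782 in D2-mdx. With at least 500 genes and no upper limit, 11 of 4919 B10, 323 of 6888 mdx, 10 of 3498 DBA and 227 of 6550 D2-mdx barcodes were members. The intervals given above for the wildtype and dystrophic libraries did not overlap on either background. Myelinating glial cells, taken as barcodes with UMIs in at least 2 of Prx, Mag and Ncmap and at most 1 Pax7 UMI, numbered 13, 85, 8 and 40 in B10, mdx, DBA and D2-mdx, or 0.273, 1.27, 0.237 and 0.661%. Pericyte-like cells, with at least 3 of 6 mural genes, made up 1.91, 9.40, 13.9 and 16.6%. Pax7-positive cells, the target of the sort, made up 93.5, 54.5, 79.8 and 51.1%. Because each share is taken of the sorted cells, more glial cells and fewer cells of the other types cannot be told apart.

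**Figure D1:**
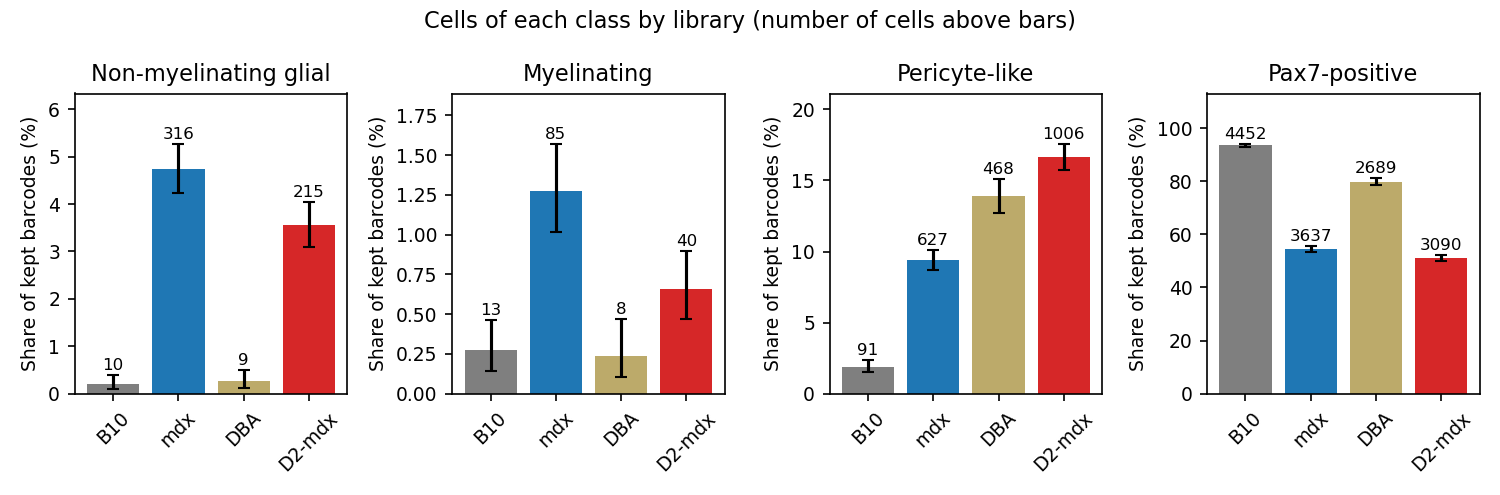
Share of kept barcodes (vertical axis, percent) taken by the glial, myelinating, pericyte-like and Pax7-positive classes in each of the 4 libraries; bars are single libraries and error bars are exact binomial 95% intervals, counting error only. Glial cells stood at 0.210 and 0.267% in the B10 and DBA libraries and at 4.74 and 3.55% in mdx and D2-mdx.

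Depth differed between these groups of cells. The median glial cell held 4476.5 UMIs and 2181.5 genes in B10 and 10972 UMIs and 3526 genes in DBA, against 6366 and 2575.5 in mdx and 6991 and 2690 in D2-mdx. Summed over cells this came to 43792, 2231286, 108407 and 1807637 UMIs. Levels below are UMIs in CPM, scaled by these sums, so 1 UMI was worth 22.8 CPM in B10 and 9.22 CPM in DBA, but 0.448 CPM in mdx and 0.553 CPM in D2-mdx. A gene with no UMI could lie at up to 68.5, 1.34, 27.7 and 1.66 CPM, the level that 3 UMIs would give. The wildtype values rest on 10 and 9 cells, and single cells move them. Median mitochondrial shares were close, at 2.72, 3.08, 2.98 and 3.07%. No barcode sequence was shared between glial cells of different libraries, whereas 5 to 16 were shared by each pair of whole libraries.

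Most members lay well inside the rule. In mdx 155 cells held 6 of the 7 glial genes and 16 held all 7, and in D2-mdx 103 and 19 did. Just inside the limit, with 3 glial genes, stood 2 B10, 16 mdx, 0 DBA and 4 D2-mdx cells. Just outside it, with 2, stood 3, 1, 0 and 10 otherwise eligible cells. The limit of 1 Pax7 UMI removed more. Of the barcodes with 3 or more glial genes, 11 of 29 (B10), 99 of 455 (mdx), 23 of 40 (DBA) and 91 of 329 (D2-mdx) held more than 1 Pax7 UMI. These barcodes were deep, with medians of 14818, 12881, 13795 and 11839 UMIs. Without any Pax7 limit, an alternative chosen after seeing the data, the shares were 0.399, 6.07, 0.950 and 4.94%, in the same order between wildtype and dystrophic libraries. Scrublet, a doublet caller, marked 0 of 10, 16 of 316 (5.06%), 1 of 9 and 23 of 215 (10.7%) members, against 3.80, 5.34, 2.70 and 4.84% of whole libraries.

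The label was checked with Schwann cell genes outside the rule. Erbb3, the neuregulin receptor, was at 502, 259, 387 and 201 CPM in B10, mdx, DBA and D2-mdx. Lgi4, a secreted ligand of the Schwann lineage, was at 1439, 869, 1282 and 833 CPM. It had a UMI in 10 of 10, 297 of 316, 9 of 9 and 207 of 215 glial cells, against 1.60 to 3.93% of Pax7-positive cells. S100b, a calcium-binding protein used as a glial marker, was at 548, 323, 240 and 363 CPM. These pan-Schwann genes were present in every library, but S100b averaged 368 CPM in glial and 929 CPM in myelinating cells. Of the non-myelinating markers, Scn7a, Ncam1, L1cam, Sox2, Cdh2 and Nes averaged 2088, 460, 368, 133, 122 and 81.3 CPM. Ngfr, Gap43 and Gfap were low, at 27.0, 25.5 and 23.2 CPM. Of all these markers only Nes was higher in the myelinating class, at 645 CPM. Mbp, which encodes myelin basic protein, stood at 571, 154, 332 and 206 CPM in the glial cells and at 7150, 6369, 6792 and 4595 CPM in the myelinating class. Since the myelin genes Prx, Mag and Ncmap parted these classes, the Mbp difference in part describes the choice. In Pax7-positive cells, which should lack it, Mbp averaged 9.95 CPM over the libraries.

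The glial genes of the rule give the cells' own description. Sox10 (chr15:79154908-79165240 of GRCm38, minus strand) was at 548, 340, 397 and 261 CPM in B10, mdx, DBA and D2-mdx. Cdh19, a cadherin of the neural crest lineage (chr1:110888326-110977584), was at 959, 332, 553 and 308 CPM. Chl1, a neural cell adhesion molecule, was at 1439, 636, 1070 and 620 CPM, and Foxd3, a neural crest transcription factor, at 274, 348, 470 and 251 CPM. Col20a1, a collagen gene, was at 480, 664, 369 and 458 CPM. Gfra3, the artemin co-receptor, spread widest, at 548, 104, 9.22 and 121 CPM. The sorted proteins' own transcripts were low. Itga7 was at 22.8, 18.4, 9.22 and 25.4 CPM and Vcam1 at 45.7, 112, 184 and 143 CPM.

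Against all other kept barcodes, the 15 genes with the highest ratio of mean CPM, among genes outside the rule with a UMI in at least 25% of glial cells, included Kcna6, Sox2, Rxrg, Grik2, Luzp2, Acsbg1, Kcnj10, Ncam2, Adam23, Nrn1, Kcnh8, Erbb3, Slitrk1 and Scn7a, at 147-fold for Kcna6 down to 102-fold for Scn7a. Kcna6, Kcnj10 and Kcnh8 encode potassium channels and Scn7a a sodium channel. Sox2 is a transcription factor of immature and non-myelinating Schwann cells. Ncam2, Adam23 and Slitrk1 encode adhesion or synaptic surface proteins. Nrn1, a membrane-anchored neurite protein, was found in 88.7% of the cells and Adam23 in 87.1%. Since the cells were picked by glial genes, these ratios describe the choice.

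**Figure D2:**
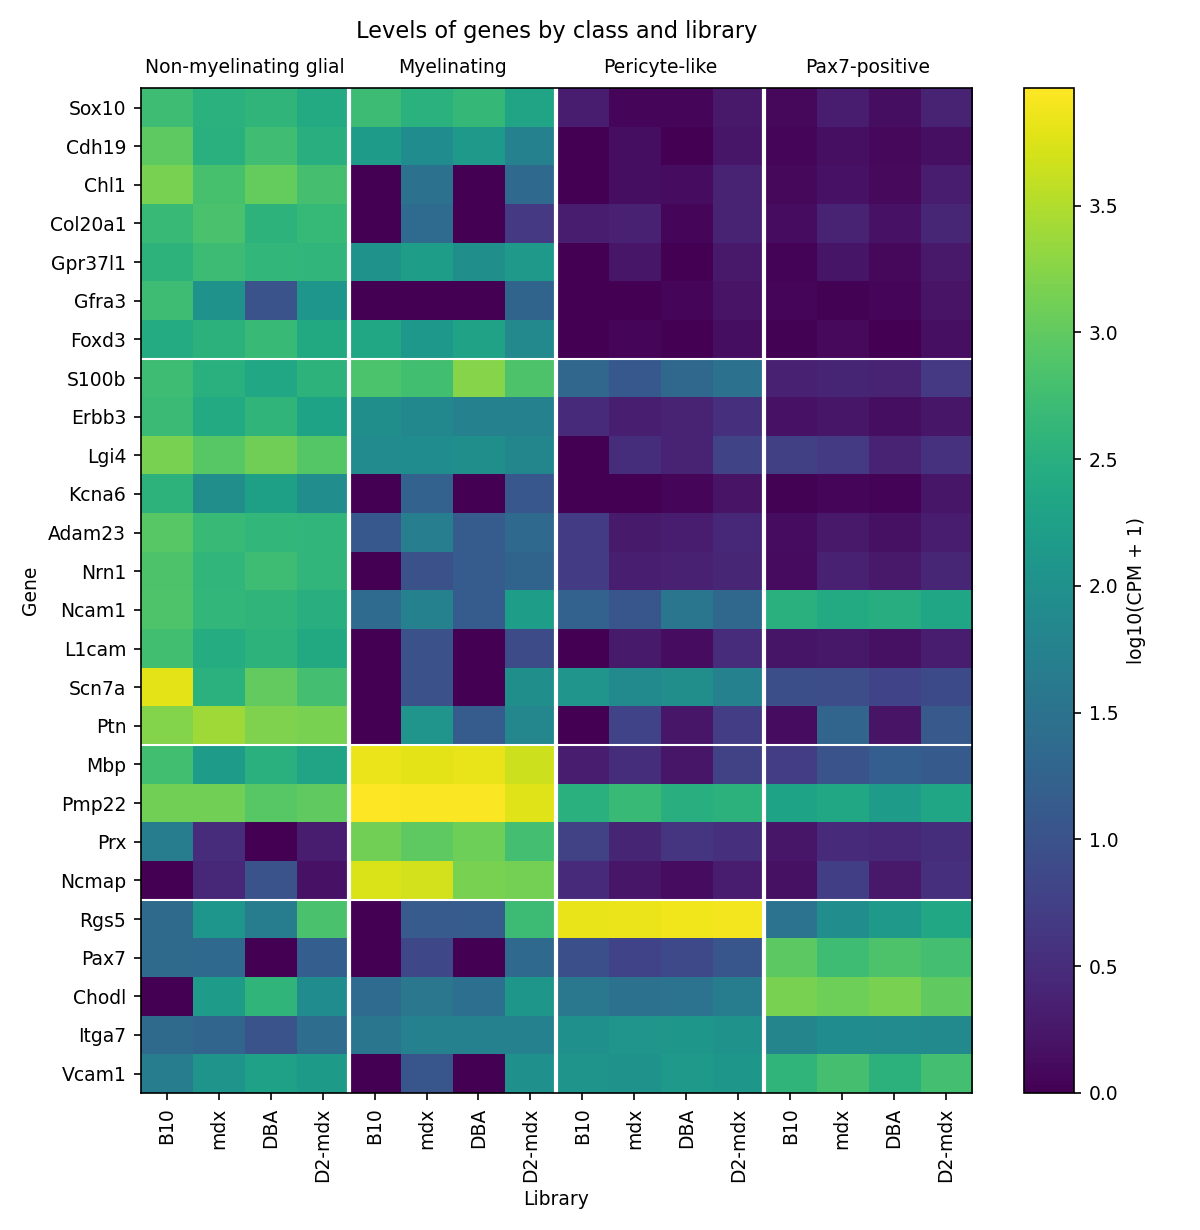
Heat map of log10(CPM + 1) for marker genes (one line of squares each) in the glial, myelinating, pericyte-like and Pax7-positive cells of each library (columns); brighter squares are higher. Lgi4 was at 833 CPM or more in glial cells of every library, whereas Mbp was at 4595 CPM or more in myelinating cells and at 571 CPM or less in glial cells.

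Transcripts of other cell types were counted in the glial cells. The pericyte list summed to 45.7, 179, 46.1 and 959 CPM in B10, mdx, DBA and D2-mdx, led by Rgs5. The satellite cell list summed to 45.7, 328, 600 and 276 CPM, with Chodl at 0, 151, 397 and 83.0 CPM and Pax7 at 22.8, 21.5, 0 and 14.4 CPM. The fibroblast list summed to 183, 186, 1291 and 527 CPM, mostly Col1a1, and in DBA 94 of the 139 Col1a1 UMIs came from 1 cell. Pdgfra, a defining fibroblast gene, was at 0, 0, 9.22 and 1.11 CPM. The immune list summed to 0, 1696, 4142 and 2354 CPM and was almost entirely Lyz2, with Cd74 at 0, 6.27, 0 and 2.77 CPM and the limit on Ptprc part of the rule. Endothelial genes summed to at most 22.8 CPM. What these transcripts contributed to the differences between libraries was not tested, except where values without the cells that carry them are given.

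The glial cells were not uniform. Clustering on values with each library's mean removed gave 5 subgroups, whose leading genes describe the clustering. Subgroup 1 (210 cells) was led by Cxcl14, Stmn1 and Ednrb, the endothelin receptor of neural crest cells. Subgroup 2 (167 cells) was led by Lyz2, Unc80, Cspg5, Pla2g7 and Slitrk3. Subgroup 3 (75 cells) was led by Gfra3, Scn7a, Slitrk6, Mal, Fndc1 and Cadm2. Subgroup 4 (70 cells) was led by Myog, Cdkn1c, Nppc and Chodl, and subgroup 5 (28 cells) by Rgs5, Tagln, Myh11 and Myl9. Of the 10 B10 cells 7 fell in subgroup 1 and 3 in subgroup 3, and the 9 DBA cells fell in subgroups 1 to 4. The mdx cells numbered 126, 106, 35, 43 and 6 in subgroups 1 to 5 and the D2-mdx cells 74, 59, 35, 25 and 22. Lgi4 was detected in 94.3, 97.6, 97.3, 92.9 and 85.7% of the cells of subgroups 1 to 5, at 699.7, 1507, 852, 516 and 486 CPM. Sox10 was at 339, 365, 363, 204 and 154 CPM.

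Subgroups 4 and 5 held genes of muscle precursors and of mural cells. In subgroup 4, Myog, the transcription factor of differentiating myoblasts, had a UMI in 25.7% of cells, and Chodl, abundant in satellite cells, in 80%. In subgroup 5, Acta2, the actin of smooth muscle, was at 4391 CPM, and 92.9% of cells held at least 3 pericyte genes. Their median depths were 9662 and 10876 UMIs, against 6563.5, 5947 and 5529 in the other subgroups. Scrublet marked 21.4 and 75% of their cells, against 1.90, 0 and 0% in subgroups 1, 2 and 3. Subgroup 5 took 1.90% of the mdx cells and 10.2% of the D2-mdx cells and none in the wildtype libraries. Without both subgroups, an alternative chosen after seeing the data, glial cells made up 4.004% of mdx and 2.78% of D2-mdx barcodes.

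**Figure D3:**
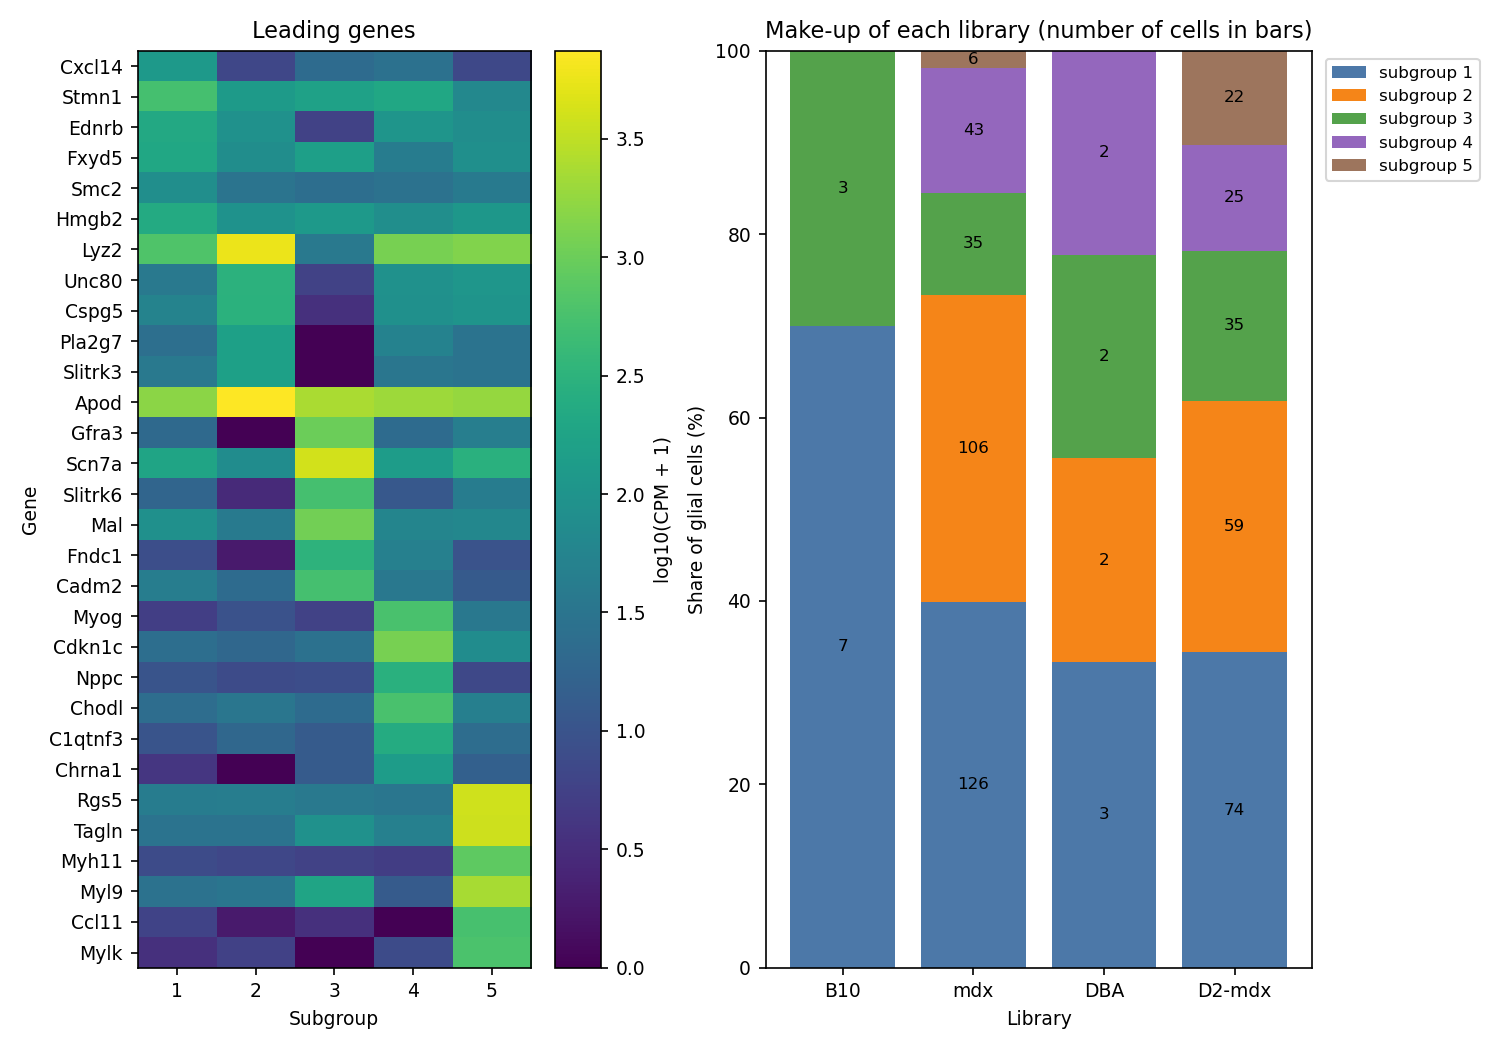
Left, mean level of the leading genes (log10(CPM + 1), brighter is higher) in the 5 subgroups of glial cells; right, make-up of each library by subgroup as a percentage of its glial cells. Subgroup 5, led by Rgs5 and Tagln, took 1.90% of mdx and 10.2% of D2-mdx glial cells.

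Subgroups 2 and 3 differed in their leading genes and in others. In subgroup 3, Scn7a stood at 3982 CPM, Mal, a proteolipid of myelin and Schwann membranes, at 1095 CPM, S100b at 842 CPM and the fibrillar collagen gene Col3a1 at 3368 CPM, while Lyz2 was at 36.1 CPM. In subgroup 2, Lyz2, which encodes lysozyme, was at 5660 CPM, Apod, an apolipoprotein known from injured nerve, at 7432 CPM, the proteoglycan Gpc3 at 1397 CPM and the growth factor Ptn at 3426 CPM, while Col3a1 was at 43.1 CPM. Jun was at 6335 CPM in subgroup 2 and 1458 CPM in subgroup 3. Immediate early and heat shock genes together summed to 33520 and 8760 CPM. As the same cells were used for clustering, these levels carry no test.

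The make-up by these gene groups was set beside library and depth. With each cell thinned to 3000 UMIs, at least 2 of Scn7a, Slitrk6, Mal, Fndc1 and Cadm2 were found in 7 of 8 B10 cells, 37 of 316 mdx cells (11.7%), 3 of 9 DBA cells and 63 of 215 D2-mdx cells (29.3%). Unthinned, 9 of 10, 44 (13.9%), 5 of 9 and 84 (39.1%) cells held them. At least 2 of Lyz2, Unc80, Cspg5, Pla2g7, Slitrk3 and Apod were found after thinning in 0 of 8, 159 (50.3%), 4 of 9 and 111 (51.6%) cells. Cells with both groups were 0, 0, 0 and 16, and cells with neither were 1, 120 (38.0%), 2 and 57 (26.5%). By these genes the B10 cells nearly all belonged to the Scn7a side. Both dystrophic libraries held cells of either side and many of neither. The gene groups were taken from subgroups of these same cells, so these shares are a description. When the library means were kept in the clustering, 8 of the 10 B10 cells fell in the Gfra3 and Scn7a subgroup.

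**Figure D4:**
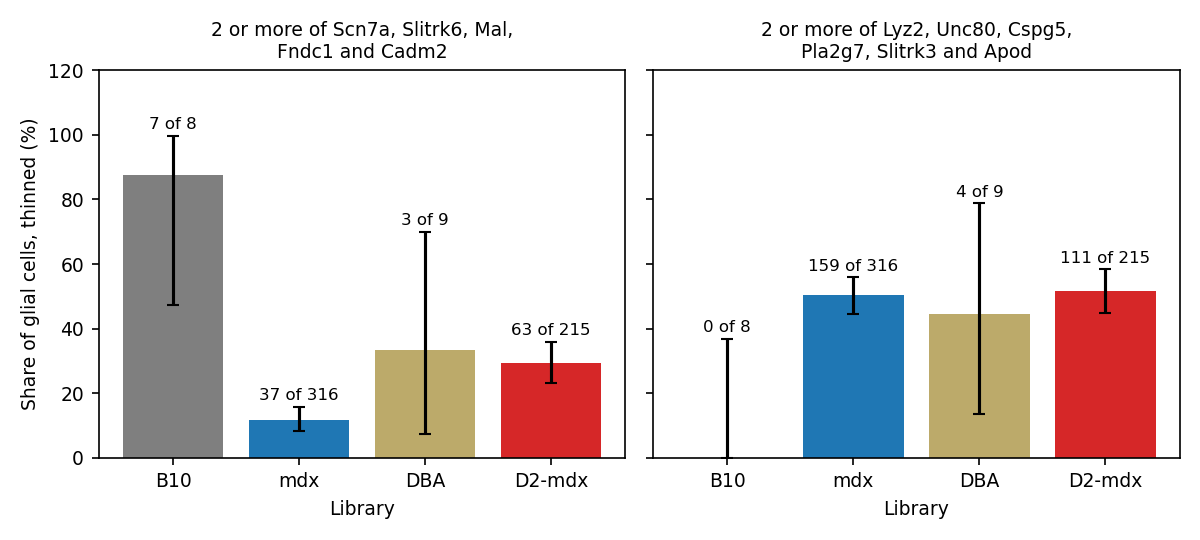
Percentage of glial cells, thinned to 3000 UMIs each, with at least 2 genes of the Scn7a group or of the Lyz2 group in each library; error bars are exact binomial 95% intervals over cells, counting error only. The Scn7a group was found in 7 of 8 B10 cells and 11.7% of mdx cells, and the Lyz2 group in 0 of 8 and 50.3%.

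Scn7a, a sodium channel of non-myelinating Schwann cells (chr2:66673425-66784914 of GRCm38, minus strand), was at 6371, 337, 1042 and 600 CPM in B10, mdx, DBA and D2-mdx. It was found in every B10 cell, at a lowest of 664, a median of 5821 and a highest of 14878 CPM. It was found in 66 of 316 mdx cells, 6 of 9 DBA cells and 106 of 215 D2-mdx cells. The highest mdx and D2-mdx cells stood at 7944 and 8883 CPM, so the range of single cells overlapped B10 while most dystrophic cells had none. Lyz2 (chr10:117277331-117282321, minus strand) went the other way between B10 and mdx, at 0, 1688, 4142 and 2342 CPM. It was found in 0 of 10, 155 of 316, 5 of 9 and 124 of 215 cells, and 339 of the 449 DBA UMIs were in 1 cell. For the background of free RNA in each library, in Pax7-positive cells Lyz2 had a UMI in 0.449, 7.78, 2.12 and 25.9% of cells, at 0.638, 11.99, 2.64 and 56.0 CPM. In myelinating cells it was at 0, 186, 0 and 85.8 CPM. The glial level was above both classes in mdx, DBA and D2-mdx. Macrophages also express Lyz2. The immune genes Cd74 and Ctss were at most 6.64 CPM in the glial cells, from which the rule had removed barcodes with a Ptprc UMI. The source of the Lyz2 transcripts was not tested.

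In the comparison of mdx with B10, which asked how the loss of dystrophin changed the cells on the C57BL/10 background, 1893 genes had a mean of at least 100 CPM. Of them 232 (12.3%) were at least 2-fold higher in mdx and 322 (17.0%) at least 2-fold lower, a library without a UMI being taken at the level of 3 UMIs. The median log2 ratio of all genes was -0.16. This balance depended on scaling. After TMM scaling the median was 0.39, with 450 genes higher and 127 lower, and after DESeq2 size factors 0.24, with 341 and 156.

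By the bound of the ratio nearest 0, Lyz2, Apod, Hspa1a and Hspa1b ranked highest in mdx over B10. Apod (chr16:31296192-31314808, minus strand) was 31.1-fold higher, at 3548 CPM against 114 (log2 4.96, 3.73 to 6.58), and was found in 256 of 316 and 3 of 10 cells. Lyz2, with 3766 UMIs against 0, was 24.6-fold higher with B10 set at 3 UMIs (log2 interval from 4.32). It came to log2 0.29 (0.07 to 0.51) with no Pax7 limit. Hspa1a, an inducible Hsp70 gene, was at 3027 against 114 CPM (log2 4.73, 3.51 to 6.35), and Hspa1b at 2952 against 183 CPM (4.01), which came to 1.44 and 0.98 with no Pax7 limit. In other cells of mdx and B10, Hspa1a was at 2286 and 2489 CPM in the Pax7-positive class, 2452 and 1102 CPM in the pericyte-like class and 1142 and 550 CPM in the myelinating class. Atf3, a stress-induced transcription factor, was at 864 against 45.7 CPM (log2 4.24), and at 531 against 476 CPM in Pax7-positive cells. Gpc3 was at 706 CPM, against 1 UMI in B10 (log2 4.95, 2.47 to 10.25). It was at 71.0 against 3.26 CPM in Pax7-positive cells, 89.1 against 174 CPM in pericyte-like cells and 23.2 against 0 CPM in myelinating cells. Tinagl1, a matrix protein gene, Dusp1, a phosphatase that curbs MAP kinases, and Cpm, a carboxypeptidase gene, had no UMI in B10. With B10 set at 3 UMIs they were 9.58-, 6.90- and 6.80-fold higher in mdx (log2 intervals from 2.96, 2.49 and 2.47). Dusp1 came to log2 -0.28 with no Pax7 limit.

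Channel, adhesion and myelin genes were among those lower in mdx. Scn7a was 18.9-fold lower (log2 -4.24, -4.44 to -4.04). Cadm2, a synaptic adhesion molecule, was at 55.6 against 891 CPM (log2 -4.002), and Itga4, an integrin, at 18.8 against 297 CPM (-3.98). Aldh1a1, a retinaldehyde dehydrogenase, differed by log2 -4.17, and Nrp2, a semaphorin receptor, by -3.61. Fndc1 was lower by log2 -3.35 and Wwp1, a ubiquitin ligase, by -3.14. AY036118 was lower by log2 -3.11, and in Pax7-positive cells too, at 221 against 881 CPM. Mal was at 97.7 against 822 CPM (log2 -3.07, -3.59 to -2.52), and Mbp at 154 against 571 CPM (-1.89).

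Gene groups are counted below over members that reached the minimum level, called measured. The minimum is a mean over the pair of libraries, so a gene that reached it through 1 library alone had to differ and is still counted. Immediate early and heat shock genes were the largest group that was mostly higher in mdx. Of 20 measured, 15 were at least 2-fold higher and none lower, with a median log2 ratio of 1.70 beside -0.16 for all genes. With no Pax7 limit 3 of the 20 were higher and none lower (median 0.61). Jun was at 5275 against 1439 CPM (log2 1.87, 1.52 to 2.26) and Fos at 4048 against 1233 CPM (1.72). In B10, 32 of the 63 Jun UMIs were in 1 cell, and the median cell stood at 520 CPM in B10 and 4214 in mdx. Summed over the group, B10 and mdx stood at 7810 and 27181 CPM in the glial cells, 16592 and 17539 in myelinating cells, 19474 and 24144 in pericyte-like cells and 50815 and 43720 in Pax7-positive cells. The handling of a preparation and its strain cannot be told apart. The counts of the other groups stand beside 12.3% of all genes higher and 17.0% lower. Cell adhesion, with 14 of 17 genes measured, had 0 higher and 7 lower (median log2 -0.92), with L1cam, an axon-glia adhesion molecule, at 279 against 571 CPM and the laminin receptor subunit Itga6 at 51.5 against 297 CPM. The group of non-myelinating markers, with 5 of 9 measured, had 0 higher and 4 lower (median -1.17). After TMM scaling 5 adhesion genes and 1 non-myelinating gene were lower, and with no Pax7 limit 2 of 10 adhesion genes were, with a median of 0.26. The pan-Schwann genes had 2 lower of 12, a share near that of all genes, and 0 higher (median -0.64; -0.17 after TMM scaling). Over cells with at least 2 genes of the Scn7a group 4 of 11 were lower and 1 higher, beside 270 of 1921 genes lower.

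Interstitial matrix genes were 3 higher and 3 lower of 11 (median log2 0.03). Bgn, Col1a2 and Col6a1 were higher, and Col3a1, Col5a1 and Col28a1 lower. Among proteases and their inhibitors, Serpine2, Serpinh1, the collagen chaperone, and Adamts1 were higher and Timp3 lower, of 7 measured. Of 15 myelin genes 5 were measured and 2 were lower, Mal and Mbp, and the median of -0.47 was 0.01 after TMM scaling. Basement membrane genes had 2 lower of 9, Nid1 and Nid2 (median -0.37; 0.11 after TMM scaling). Of 14 cholesterol synthesis genes 2 were measured, Hmgcs1 (63.6 against 434 CPM) and Msmo1 (60.1 against 160 CPM), and both reached the minimum through their B10 level. Ntrk2, the receptor of brain-derived neurotrophic factor, was higher, at 246 against 68.5 CPM, 1 of 7 measured trophic receptors. Of 3 measured perisynaptic genes, Ajap1 and Cspg4 were higher (median 1.15). That median was -0.61 with no minimum level, and none of the 3 was 2-fold higher over cells with at least 2 genes of the Scn7a group (0.31).

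Because nearly all B10 cells were of the Scn7a side, the ratios were also taken over only the cells with at least 2 of Scn7a, Slitrk6, Mal, Fndc1 and Cadm2, 9 in B10 and 44 in mdx, an alternative chosen after seeing the data. Scn7a and Cadm2, which now chose the cells, gave log2 -1.25 and -1.21. Apod remained higher (log2 4.15), as did Hspa1a (3.74). Lyz2 had 134 UMIs against 0. Jun came to 0.92 and Fos to 0.39. Gpc3 came to at least 0.45 and Cpm to at least -0.11, lower bounds with B10 set at the level of 3 UMIs. Cpm had no UMI in B10, so its value gives no direction. Col3a1 changed sign, from -1.11 over all cells to 0.95. Interstitial matrix genes were then 5 higher and 0 lower of 12 (median log2 0.92), and immediate early and heat shock genes 6 higher and 1 lower of 18 (0.68). Basement membrane genes were 3 higher and 0 lower of 12, and proteases and their inhibitors 5 higher and 1 lower of 8. Pan-Schwann genes were 1 higher and 4 lower of 11, adhesion genes 0 and 4 of 15, and myelin genes 0 and 0 of 5. These counts stand beside 167 higher and 270 lower of all 1921 genes measured in these cells.

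In D2-mdx compared with DBA, the same question on the DBA/2 background, 1758 genes had a mean of at least 100 CPM. Of these 96 (5.46%) were at least 2-fold higher and 167 (9.5%) lower, with a median log2 ratio of 0.01. After TMM scaling 168 were higher and 104 lower (median 0.21), and after DESeq2 size factors 141 and 128 (0.12). Acta2, smooth muscle actin, was at 687 against 36.9 CPM (log2 4.22, 2.86 to 6.10) and Rgs5, a pericyte gene, at 675 against 46.1 CPM (3.87), with Tagln at 3.61 and Myl9 at 3.34. Without subgroups 4 and 5 Rgs5 came to -0.20, Acta2 to 0.56, Tagln to 0.97 and Myl9 to 0.46. Mmp13 had 1009 UMIs against 0, of which 1007 were in 1 cell, and it is not read further.

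Atf3, Hspb1 and Ifi27l2a remained higher without those subgroups, at log2 2.90, 4.45 and 4.71, and with no Pax7 limit, at 2.96, 2.24 and 1.35. Without the subgroups DBA held 7 cells, with no more than the 3 Hspb1 UMIs and 1 Ifi27l2a UMI of its full set. The size of these 2 ratios is therefore not read. Atf3 was at 900 against 120 CPM (log2 2.91, 2.13 to 3.82) and was found in 140 of 215 and 4 of 9 cells. In the other classes Atf3 stood at 489 against 195 CPM in Pax7-positive, 589 against 289 CPM in pericyte-like and 200.1 against 0 CPM in myelinating cells. Hspb1, a small heat shock protein gene, was at 331 CPM against 3 UMIs (log2 3.58, 2.03 to 5.86), and was also higher in Pax7-positive cells, at 794 against 295 CPM. Ifi27l2a, an interferon-induced gene, had 477 UMIs against 1 (log2 4.84, 2.35 to 10.14), and in Pax7-positive and pericyte-like cells stood at 13.8 against 0.857 CPM and 43.1 against 16.9 CPM. Fgl2, a secreted fibrinogen-like protein, was higher by log2 3.57, but -0.17 with no Pax7 limit. Id3, a helix-loop-helix inhibitor, was at 464 against 46.1 CPM, and it also differed in Pax7-positive cells, at 1740 against 498 CPM.

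Among genes lower in D2-mdx, Nppc, the C-type natriuretic peptide, was at 46.5 against 553 CPM (log2 -3.57, -4.07 to -3.07), from 25 of 215 and 6 of 9 cells, and was lower in Pax7-positive cells too, at 734 against 2051 CPM. The same held for Pde10a (log2 -3.06; 92.7 against 426 CPM in Pax7-positive cells), Clmn (-2.71; 216 against 525 CPM) and Chodl (-2.26; 990 against 1451 CPM). Without subgroups 4 and 5 Chodl came to 0.67, on 26 UMIs against 1. S1pr3, a receptor of sphingosine 1-phosphate, was lower by log2 -3.38, and in Pax7-positive cells too, at 36.0 against 145 CPM. Gm42418 was lower by -2.56, with 1817 against 5642 CPM in Pax7-positive cells, and AY036118 by -3.66. Col8a1 was lower by -2.36, but came to 0.15 over cells with at least 2 genes of the Scn7a group. Mal was lower by -1.32. Apod came to 0.98, Lyz2 to -0.82 and Hspa1a to -0.68, with the DBA Apod and Lyz2 values each resting mainly on 1 cell, with 138 of 167 and 339 of 449 UMIs.

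By group, the counts in D2-mdx against DBA are to be read beside the 5.46% of all genes that were higher and the 9.5% that were lower. Adhesion genes had 0 higher and 5 lower of 13, Itga6, Cadm1, Itgb4, Itgb8 and Cdh2 (median log2 -0.57). Myelin genes had 3 lower of 6, Mal, the connexin Gjc3 and the hedgehog ligand Dhh (median -1.004). Non-myelinating markers had 2 lower of 6, Sox2 and Cdh2, and pan-Schwann genes 2 of 12. With no Pax7 limit none of 10 adhesion, 5 myelin or 10 pan-Schwann genes was 2-fold lower. Of 20 immediate early and heat shock genes, Atf3 and Socs3 were higher and Btg2 lower, with a median of -0.08. Over the cells with at least 2 genes of the Scn7a group, 8 of 20 were higher and 2 lower (median 0.89). In these cells 141 of all 1807 genes measured were higher and 212 lower. Of 11 interstitial matrix genes, 4 were lower, Col3a1, Col5a1, Col1a2 and Col1a1, and none higher (median -0.21; 0.03 after TMM scaling). With no Pax7 limit 2 of 10 were higher and none lower (median 0.07). In DBA 169 of the 285 Col3a1 UMIs were in 1 cell. Timp1 was the measured protease inhibitor that was higher, and Ifitm3, an interferon-induced membrane protein, was at 1344 against 609 CPM.

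The comparisons of mdx with B10 and of D2-mdx with DBA share no library. Of 1509 genes measured in both, 222 were higher and 157 lower in mdx, 80 and 117 in D2-mdx, and 30 were higher and 49 lower in both. Higher in both were Atf3, Hspb1 and Acta2 (log2 3.81 in mdx and 4.22 in D2-mdx). Tinagl1 was 9.58-fold higher in mdx with B10 set at 3 UMIs, and came to log2 1.03 in D2-mdx. Socs3, a cytokine signalling inhibitor, came to 1.48 and 1.26. Cdkn1c, a cell cycle inhibitor that led subgroup 4, came to 2.69 and 1.89. Serpina3n, a secreted protease inhibitor, came to 3.24 and 1.41 and Tnfaip6 to 3.66 and 1.15. Hspa5, the endoplasmic reticulum chaperone, came to 2.56 and 1.03. Tpm1 (1.81 and 1.59), Gapdh (2.07 and 2.31) and 19 others made up the rest. Without subgroups 4 and 5 Acta2 came to 1.02 and 0.56, and with no Pax7 limit to 0.06 and 1.22. Without subgroups 4 and 5 Cdkn1c came to -1.01 (39 UMIs against 2) and -0.91 (26 against 3). Those lower in both included Mal (-3.07 and -1.32), Itga6 (-2.53 and -1.66), Ndrg1 (-2.09 and -1.34), whose loss causes a demyelinating neuropathy, Sostdc1 (-2.49 and -1.56), Abca8b (-1.52 and -1.57), Dst (-1.27 and -1.04), Sox2 and Utrn. The wildtype sides are 10 and 9 cells. In B10, Acta2, Serpina3n and Tnfaip6 rested on 1 UMI each, with intervals of 1.32 to 9.11, 0.76 to 8.55 and 1.18 to 8.97. Atf3 and Cdkn1c rested there on 2 UMIs and Hspb1 on 3. The mdx over B10 interval held 0 for Snrpe, Hs2st1, Pdia4, Cycs, Cope, Psma4 and Stub1 among the genes higher in both. It also did for Col5a1, Trim2 and Cdh2 among those lower.

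**Figure D5:**
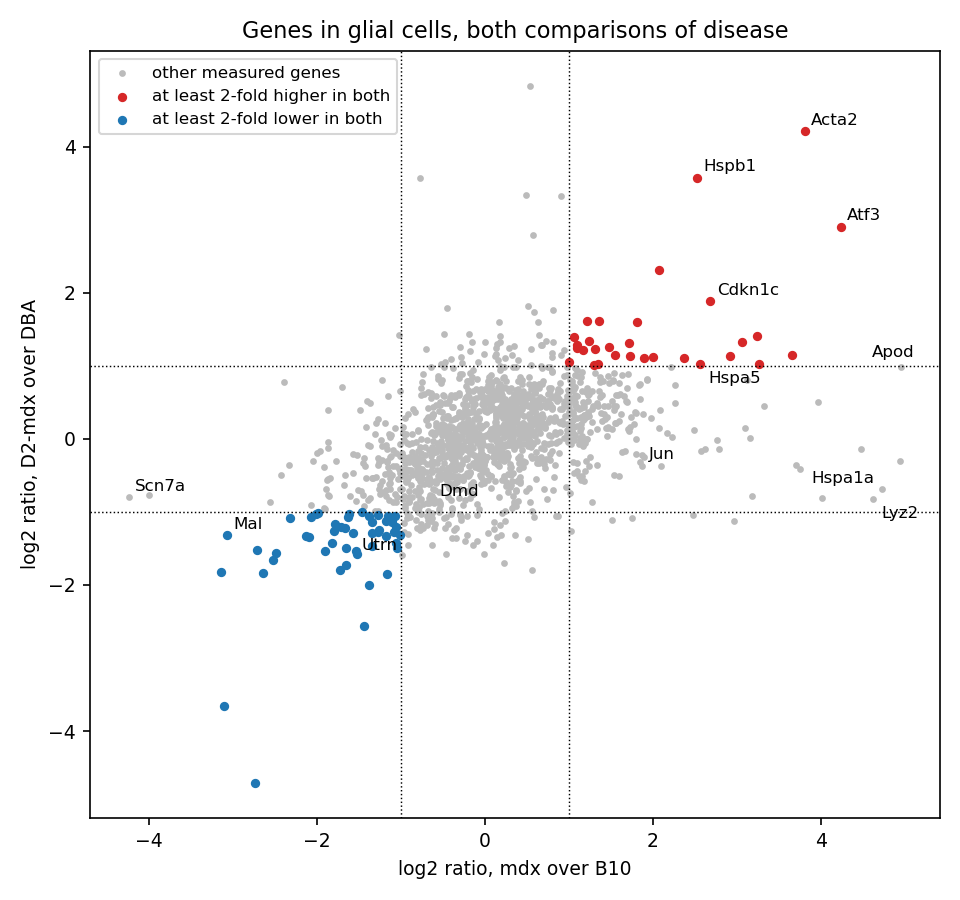
Log2 ratio of D2-mdx over DBA (vertical axis) against log2 ratio of mdx over B10 (horizontal axis) for 1509 genes measured in both comparisons, with some genes named; a gene without a UMI in a wildtype library is drawn at its bound. Atf3 lies high on both axes, at 4.24 and 2.91, and Mal low on both, at -3.07 and -1.32.

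Dmd (chrX:82948870-85206141, plus strand) was at 548 CPM (exact interval 351 to 815) in B10 and 434 CPM (319 to 577) in DBA, the wildtype libraries, whereas mdx stood at 357 CPM (333 to 383) and D2-mdx at 238 CPM (216 to 261). The ratios on the log2 scale were -0.62 (-1.20 to 0.03) between mdx and B10, and -0.87 (-1.30 to -0.40) between D2-mdx and DBA, so neither reached 2-fold. A 3′ library does not tell the full-length transcript from the shorter ones. Pax7-positive cells held 327, 134, 294 and 115 CPM. Utrn, which encodes the dystrophin relative utrophin (chr10:12382188-12869365, minus strand), was at 982, 330, 544 and 222 CPM. It was lower in both dystrophic libraries, by log2 -1.57 (-2.02 to -1.09) and -1.29 (-1.69 to -0.87). Myelinating cells held more of it, at 2108, 1144, 1604 and 854 CPM, and Pax7-positive cells less, at 214, 134, 201 and 114 CPM. Dag1, the dystroglycan that anchors the complex to laminin, was at 845, 1807, 1734 and 1281 CPM. Sgcd, a sarcoglycan, was at 320, 48.0, 55.3 and 34.3 CPM. It was lower in mdx by log2 -2.74 but not past 2-fold in D2-mdx (-0.69, -1.89 to 0.81). Among cells with at least 2 Scn7a group genes, none of 7 measured complex genes was 2-fold apart in mdx over B10 (median -0.21). In D2-mdx over DBA 1 of 3 was lower in such cells (median -0.50). With no Pax7 limit 1 of 4 was lower in mdx over B10 and none of 4 in D2-mdx over DBA.

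The comparison of D2-mdx with mdx asked how the genetic background set the dystrophic cells apart, and it shares each library with a comparison above. It rests on 215 and 316 cells. Of 1718 genes, 34 (1.98%) were at least 2-fold higher in D2-mdx and 13 (0.757%) lower, with a median log2 ratio of 0.01. Several of these also differed in other cells. Rpl29, a ribosomal protein gene, was lower by log2 -3.82, with Pax7-positive cells at 134 against 2000 CPM. Gm10709 and Gm8730 were higher, with Pax7-positive cells at 1024 against 1.81 CPM and 1621 against 105 CPM. PISD was higher by log2 2.49, with Pax7-positive cells at 137 against 28.5 CPM. Reads of ribosomal genes and their near-identical copies may be split between them, so these values are uncertain.

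Other genes are given beside their values in the other classes. Arl6ip1, an endoplasmic reticulum shaping protein gene, was lower in D2-mdx by log2 -2.45 (-2.61 to -2.29), at 201 against 1095 CPM, whereas Pax7-positive cells held 80.8 and 103 CPM. Negr1, a neuronal growth regulator, was lower by -1.77 (-2.10 to -1.45), with 0.650 and 1.08 CPM in Pax7-positive cells. Klk8, a serine protease, was lower by log2 -1.18 (-1.39 to -0.97). Rnase4 was higher by 3.20 (2.83 to 3.59), Igfbp5, an insulin-like growth factor binding protein, by 2.79 (2.57 to 3.01) and Lgals3, galectin 3, by 2.09 (1.87 to 2.32). In Pax7-positive cells these genes stood at 65.1 against 34.4, 647 against 484 and 233 against 124 CPM, in pericyte-like cells at 111 against 75.5, 4472 against 3741 and 163 against 61.1 CPM, and in myelinating cells at 35.7 against 6.33, 1243 against 1134 and 229 against 8.45 CPM. Rgs5 was higher by 2.47 and Acta2 by 1.10, which came to 0.24 and 0.30 without subgroups 4 and 5. Without them Igfbp5 came to 1.84, Lgals3 to 2.14 and Rnase4 to 3.52.

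Interstitial matrix genes were 4 higher and 0 lower of 10 in D2-mdx against mdx (median log2 0.57), beside 1.98% of all genes higher, with Col3a1 at 1189 against 571 CPM (1.06), Col1a1 at 429 against 182 CPM (1.24), and Col5a2 and Col6a1 also higher. Over the cells with at least 2 genes of the Scn7a group, 39 of the 84 D2-mdx ones of which also held the Lyz2 group, 1 of 13 was higher and 1 lower (median 0.04). In these cells 46 of all 1745 genes measured were higher and 55 lower. Mal was higher in D2-mdx by 1.14 and Scn7a came to 0.83 (0.70 to 0.97). Hspa1b was the 1 of 20 immediate early and heat shock genes that was lower (-1.16), and the median of these genes was -0.20. Over the cells with at least 2 genes of the Scn7a group, 5 of 20 were higher and 0 lower (median 0.49), and 2 of 11 pan-Schwann genes were lower. These counts too stand beside the 46 higher and 55 lower of all 1745 genes in those cells. Over all glial cells none of 11 pan-Schwann or 9 adhesion genes was 2-fold apart in either direction, and none of 4 genes of MHC class I, with H2-D1 at 3442 against 2087 CPM.

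Genes known from nerve repair and trophic support were mostly low. Ptn, pleiotrophin, was the abundant ligand, at 1690, 2463, 1587 and 1472 CPM in B10, mdx, DBA and D2-mdx, with log2 0.54 for mdx over B10 and -0.74 for D2-mdx over mdx. The other ligands listed stood at 37.6 CPM or less. Gdnf, induced in repair cells, was at 0, 2.24, 18.4 and 6.09 CPM, and Shh and Olig1, repair cell genes, had no UMI in any library. Jun was thus the abundant gene of the repair list. Of the matrix genes, Sparc, a collagen-binding protein, was at 5846, 4523, 6679 and 6768 CPM, and Postn, periostin, at 1073, 1804, 1430 and 2058 CPM.

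A small share of glial cells carried cell cycle transcripts, and in D2-mdx it was above the share in pericyte-like and Pax7-positive cells. After thinning to 3000 UMIs, at least 3 of 18 proliferation genes were found in 0 of 8 B10 cells, 4 of 316 mdx cells (1.27%, 0.346 to 3.21), 0 of 9 DBA cells and 12 of 215 D2-mdx cells (5.58%, 2.92 to 9.55). Unthinned, 13 mdx (4.11%) and 23 D2-mdx cells (10.7%) held them. Thinned pericyte-like cells stood at 0.478% in mdx and 1.09% in D2-mdx, and thinned Pax7-positive cells at 1.32 and 2.39%. A share of 0 among 8 or 9 cells could not show values of this size. By the unthinned count 25 of 210 cells (11.9%) held them in subgroup 1, 1 of 167 in subgroup 2, 0 of 75 in subgroup 3, 8 of 70 (11.4%) in subgroup 4 and 2 of 28 (7.14%) in subgroup 5.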

How the data were processed

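Hindlimb cells of 4 strains, 2 mice pooled for each, were sorted and run as 1 Chromium 3′ library each. The authors deposited raw UMI counts per gene and barcode, made with Cell Ranger 3.0.1 on mm10 per the labels. Members, comparison cells and the 34 gene lists were chosen with earlier results of these data known. Counts were summed over the cells of a class in each library and given as CPM. Ratios carry exact binomial intervals and levels exact Poisson intervals (SciPy 1.17.1), 95% and for counting error only. Genes needed a mean of 100 CPM over the pair, and a library without a UMI was set at 3 UMIs.

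Named genes were those of the rule, the sort and the dystrophin complex, the 15 leading genes, the 10 highest and 10 lowest of each comparison by the bound nearest 0, up to 4 members of each list with the most abundant one, and 6 per subgroup. Genes that passed 2-fold in both comparisons of disease or were given for a list's count were added after their values were seen. Subgroups are Leiden clusters (Scanpy 1.11.5). The rule removed no doublets; Scrublet, edgeR 4.0.16 TMM factors and DESeq2 1.42.0 size factors served as alternatives. The calculation of ratios, intervals and calls was checked on simulated counts with planted changes larger than 2-fold. Those counts had counting error only. The check therefore does not cover changes near 2-fold or single cells that hold most of a gene's UMIs. DBA was not compared with B10 gene by gene, since 9 and 10 cells were to be set against each other. Gene positions are from GENCODE on GRCm38. Results for some genes are not reported here.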

Additional observations from a re-analysis of the deposited data

Results flagged for a closer look

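There were 6 genes that lay at least 2-fold apart in opposite directions in the 2 comparisons of disease. The difference between the comparisons was not tested, and these genes were chosen after their values were seen. Col1a2, an interstitial collagen gene, came to log2 1.52 for mdx over B10 (849 against 297 CPM) and -1.12 for D2-mdx over DBA (1345 against 2915 CPM). Col11a1, another fibrillar collagen gene, came to 2.97 (179 CPM against 1 UMI in B10) and -1.13 (106 against 231 CPM). Btg2, an antiproliferative immediate early gene, came to 2.48 (381 CPM against 3 UMIs in B10) and -1.04 (269 against 553 CPM). Phlda1 had no UMI in B10. With B10 set at 3 UMIs it was 3.36-fold higher in mdx, log2 1.75 (interval from 1.45), and it came to -1.09 in D2-mdx (243 against 517 CPM). Specc1 came to 1.03, with an interval of -0.53 to 3.31, and to -1.27. Igfbp7, a secreted binding protein, went the other way, with -1.03 in mdx (515 against 1050 CPM) and 1.43 in D2-mdx (1266 against 470 CPM). In each case the wildtype values rest on 10 and 9 cells.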

How the results depend on the processing

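There were 856 values under the alternatives, for the genes named by rank and for Dmd and Utrn. Of them 727 stayed inside the counting interval of the reported value and 123 moved out of it. The other 6, all of genes at least 2-fold apart, changed sign. Among these, the value for Cpm is a lower bound with B10 set at 3 UMIs and gives no direction. The shares of glial cells moved past their intervals with no Pax7 limit (0.399% in B10 and 0.950% in DBA, 6.07% in mdx and 4.94% in D2-mdx), with no Pax7 UMI allowed (4.02% in mdx), after thinning to 3000 UMIs (0.593% in DBA) and without the 2 subgroups with myogenic and mural genes (4.004% in mdx and 2.78% in D2-mdx). The counts of genes 2-fold higher and lower in mdx over B10 were 116 and 121 with no Pax7 limit, 428 and 791 at a minimum of 50 CPM, 123 and 117 at 200 CPM, 661 and 6499 with no minimum, 450 and 127 with TMM factors, and lower in 156 with DESeq2 size factors. In D2-mdx over DBA they were 57 and 61, 240 and 414, 42 and 52, 938 and 3885, and 168 and 104 with TMM factors. In D2-mdx over mdx they were 62 and 35 at 50 CPM, 22 and 7 at 200 CPM and 1050 and 800 with no minimum, and the lower count was 21 with at least 500 genes and no upper limit and 55 in cells with at least 2 Scn7a group genes. With no Pax7 limit the sign changed for Dusp1 in mdx over B10 (-0.28) and Fgl2 in D2-mdx over DBA (-0.17). In cells with at least 2 Scn7a group genes it changed for Col8a1 in D2-mdx over DBA (0.15). There Cpm in mdx over B10 came to -0.11, a lower bound with no UMI in B10, so no direction is read. Without the 2 subgroups the sign changed for Rgs5 (-0.20) and Chodl (0.67) in D2-mdx over DBA. The median of the perisynaptic list in mdx over B10 turned with no minimum (-0.61). Col3a1, not among these values, went from -1.11 to 0.95 in mdx over B10 in cells with at least 2 Scn7a group genes. Some list medians turned, in mdx over B10 to 0.26 for adhesion and 0.06 for myelin with no Pax7 limit and to 0.26 for basement membrane in cells with at least 2 Scn7a group genes. The cause of these changes was not tested. Depth limits the wildtype values, as 1 UMI is worth 22.8 CPM in B10 and 9.22 CPM in DBA. No paired analysis was possible because each strain has 1 library.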

Other observations

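The barcodes with glial genes that only the Pax7 limit kept out were deep and also held Chodl, a satellite cell gene. In B10, 9 such barcodes held 183 Lyz2 UMIs in 2 cells, of which 147 were in 1 cell, so Lyz2 came to log2 0.29 (0.07 to 0.51) for mdx over B10 once they were let in, against no UMI in the 10 B10 cells of the rule. Apod remained higher in mdx with them (3.49), as did Hspa1a (1.44), and Scn7a remained lower (-3.32). Ifi27l2a, an interferon-induced gene, was at 343 CPM in B10, 497 in mdx and 264 in D2-mdx glial cells but had 1 UMI in DBA, at 9.22 CPM.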
